A study of Mus musculus with 18 samples.

Results

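Imprinted genes outside the Dlk1 locus were followed across normal lung and alveolar/bronchiolar tumors of the mouse. The set was a list of 35 genes, and a gene was measured where a probe set of the Affymetrix mouse array carried its symbol and no other. Of the 35 genes, 32 were measured among 18193 genes tested. H19 was read only by a probe set it shares with Mir675, and Zrsr1 and Peg13 had no probe set of their own. The list was made with earlier results of these data known.

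The animals were B6C3F1/N mice, a hybrid of the C57BL/6 and C3H backgrounds used in long-term inhalation studies, aged 5 to 6 weeks at the start. Antimony trioxide was inhaled for up to 105 weeks at 3, 10 or 30 mg/m3 by 60 mice of each sex per concentration, beside an equal group at 0. The 18 arrays came from 6 samples of vehicle control lung, 6 spontaneous lung tumors and 6 lung tumors of mice given antimony trioxide, called treated tumors here. The labels give no animal, sex or exposure concentration for a sample, so treated tumors may come from different concentrations, and the p-values reflect only how much these samples vary. Control samples were lung and tumor samples were dissected from the surrounding lung. In such bulk samples fewer cells of a type and less RNA per cell cannot be told apart.

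Control 5 and spontaneous tumors 5 and 6 stood apart, with a median correlation to the other arrays of 0.301 to 0.476 against 0.920 to 0.973 for the other 15. They were left out, which left 5 control, 4 spontaneous tumor and 6 treated tumor arrays, and calls over all 18 are given beside the first counts. Control and tumor arrays also differed in the Gapdh 3-prime minus 5-prime signal, at 1.84 to 2.21 log2 units in control and 1.09 to 1.97 in tumors. The mean log2 signal of the BioB control probe sets was 10.65 to 11.24 in control and 10.19 to 10.62 in tumors, without overlap. The part of these differences in the calls was not tested. The values are log2 signals, so 1 unit is a doubling. Alveolar type 2 markers were bright on the 15 arrays, with a mean log2 signal over 10 markers of 11.97 to 12.73 in control and 13.13 to 13.44 in tumors.

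Imprinted genes are transcribed from the maternal or the paternal copy alone, as set by DNA methylation laid down in the egg or sperm at control regions rich in CpG. They lie in clusters, and many act on fetal growth: paternally expressed genes such as Igf2 tend to promote it, and maternally expressed ones such as Cdkn1c, Phlda2 and Grb10 tend to restrain it. Several fall silent in the lung after birth, and loss or gain of their expression is known from many tumors. The arrays read the total signal of a gene and do not separate the alleles.

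Promoters of 3 genes called in both kinds of tumor, Ndn, Ppp1r9a and Phlda2, are shown because they differ widely in CpG content, the substrate of imprinting marks, and the stretch between Peg3 and Usp29 because a single tumor was highest for both. Peg10 had no window in the promoter table used. Sequences are from RefSeq in build GRCm38.p6, with each CG pair in capitals. Each of the first 3 runs over the 250 bases before an annotated start, and the last is the stretch between the divergent starts of Peg3 and Usp29. That of Ndn lies at chr7:62348027-62348276 on the plus strand, that of Ppp1r9a at chr6:4903061-4903310 on the plus strand, that of Phlda2 at chr7:143502525-143502774 on the minus strand, and the Peg3 and Usp29 stretch at chr7:6730420-6730582, read on the plus strand.
Ndn: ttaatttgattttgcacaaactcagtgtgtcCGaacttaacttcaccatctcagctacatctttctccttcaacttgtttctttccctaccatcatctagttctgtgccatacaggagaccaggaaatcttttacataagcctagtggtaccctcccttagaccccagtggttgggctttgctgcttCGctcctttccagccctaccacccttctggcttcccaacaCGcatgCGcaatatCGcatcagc
Ppp1r9a: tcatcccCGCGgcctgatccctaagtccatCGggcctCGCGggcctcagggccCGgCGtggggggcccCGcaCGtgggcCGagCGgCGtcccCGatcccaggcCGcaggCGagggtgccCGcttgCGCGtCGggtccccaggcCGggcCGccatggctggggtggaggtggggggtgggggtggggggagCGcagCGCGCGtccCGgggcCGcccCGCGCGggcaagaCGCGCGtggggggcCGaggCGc
Phlda2: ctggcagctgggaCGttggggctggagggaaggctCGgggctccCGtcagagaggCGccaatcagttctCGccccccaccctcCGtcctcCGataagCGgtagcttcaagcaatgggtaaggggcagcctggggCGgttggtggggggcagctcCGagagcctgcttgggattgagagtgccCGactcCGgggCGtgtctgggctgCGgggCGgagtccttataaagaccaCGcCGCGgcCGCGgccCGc
Peg3 and Usp29: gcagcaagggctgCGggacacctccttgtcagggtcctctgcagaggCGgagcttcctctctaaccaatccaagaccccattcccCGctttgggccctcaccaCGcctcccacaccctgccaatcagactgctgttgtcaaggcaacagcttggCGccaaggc
These stretches hold 5 CG pairs for Ndn, 35 for Ppp1r9a, 21 for Phlda2 and 5 between Peg3 and Usp29. In windows of 300 bases that reach 50 bases past the start, the Ppp1r9a start held 48 CG pairs. Of 32851 such windows in the genome, 1.22% held at least as many. A second annotated Ppp1r9a start held 10. The Phlda2 window held 26 (16.9% held at least as many), the Ndn window 11 (41.4%) and the Airn window 3 (76.7%). Of the 32 genes, 26 had a window, and the richest window of a gene held a median of 17 CG pairs against 8 over all genes. The letters CG read the same on both strands. These counts describe sequence and not methylation, which was not measured.

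Of the 32 genes, 6 passed the test in spontaneous tumors and 8 in treated tumors (limma, Benjamini-Hochberg adjusted p under 0.05 over all genes tested). Peg10, Ppp1r9a, Phlda2, Trappc9 and Ube3a rose and Ndn fell in both kinds of tumor, and Nnat and Airn also fell in treated tumors. In spontaneous tumors 33% of all genes passed, 20.1% higher and 12.9% lower, and in treated tumors 38.8% passed, 23.8% higher and 15% lower. The 6 and 8 imprinted genes, 5 higher and 1 lower and 5 higher and 3 lower, are 18.75% and 25% of the set, and the difference from all genes was not tested. Their median log2 fold change was -0.04 in spontaneous and 0.02 in treated tumors, against 0.12 and 0.09 over all genes. With all 18 arrays only Ndn was called in spontaneous tumors (4.16% of all genes) and only Ndn and Peg10 in treated tumors (7.42%). The map of each gene in each array shows a few genes that moved in every tumor and many that moved in some tumors only.

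**Figure D1:**
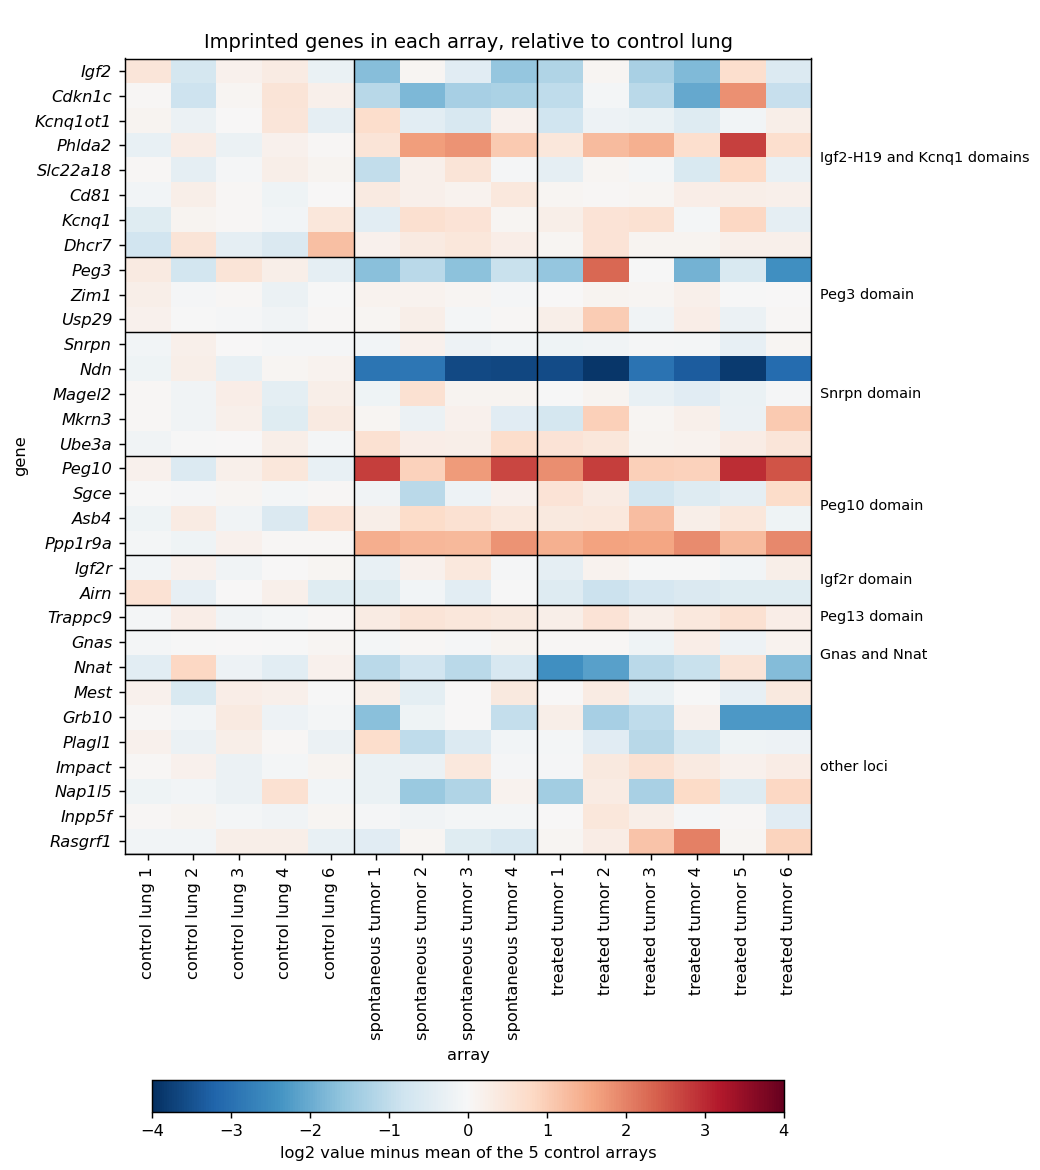
Each gene (vertical axis, by imprinted domain) in each of the 15 arrays (horizontal axis), as the log2 value minus the mean of the 5 control arrays (color). Ndn was low and Ppp1r9a high in all 10 tumors, while Nap1l5 was high in some tumors and low in others. Peg3 was above the control mean only in treated tumor 2, and Cdkn1c only in treated tumor 5.

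Ndn, which encodes necdin, a MAGE-family protein that restrains cell growth and whose human counterpart is silent in Prader-Willi syndrome, lies in the cluster with Snrpn, Magel2, Mkrn3 and Ube3a on chromosome 7. In control 1, 2, 3, 4 and 6 its log2 signal was 9.68, 10.10, 9.57, 9.94 and 10.00. In spontaneous tumors 1 to 4 it was 6.93, 6.96, 6.25 and 6.21. In the treated tumors it ran from 5.96 over a median of 6.40 to 6.91. All 10 tumors lay far below all 5 controls, and the tumor groups overlapped. Ndn had log2 fold changes of -3.27 ± 0.22 (SE) in spontaneous tumors (limma adjusted p = 1.53e-07, n = 4 against 5) and -3.44 ± 0.20 in treated tumors (adjusted p = 1.96e-08, n = 6 against 5), or 9.63 and 10.9 times lower. Of its 8 probe sets 5 fell, with log2 fold changes of -3.09 to -3.84, and the other 3 were dim, with log2 fold changes no further from 0 than -0.21.

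Many markers of stromal, vascular and airway cells, and some of mesothelial cells, also fell in the tumors. Among fibroblast markers 7 of 12 fell in spontaneous tumors, and 7 fell and 1 rose in treated tumors, and their summed signal was 31810 to 44358 in control, 5874 to 11891 in spontaneous and 4824 to 17075 in treated tumors, on the linear scale. Col1a1, Col1a2 and Col3a1, the brightest of them, had log2 fold changes of 0.57, -0.74 and -0.68 in spontaneous tumors, where they did not pass, and 0.81, -0.61 and -0.94 in treated tumors, where Col1a1 rose (limma adjusted p = 0.0456) and the others did not pass. The dimmest, Lum, had a mean log2 signal of 4.51. For smooth muscle 7 of 7 markers fell in each comparison, with a summed signal of 6769 to 18579 in control against 2124 to 3807 and 1799 to 3842 in spontaneous and treated tumors. Endothelial markers fell in 9 of 10 and 10 of 10 cases, from 22417 to 37406 in control to 3148 to 6624 and 3019 to 7054. Airway club and ciliated cell markers had the lowest median log2 fold changes of the cell type lists, -4.07 and -4.42, with 7 of 9 and 9 of 9 lower and a summed signal of 49229 to 68619 in control against 3161 to 19108 and 887 to 13699. Of the mesothelial markers 3 of 7 fell in each comparison, from 1078 to 2104 in control to 220 to 303 and 239 to 992, with Gpm6a at -6.06 and -5.72. Of nerve and neuroendocrine markers, 1 of 6 (Syp) fell in each comparison, and the sum was 350 to 413 in control, 286 to 362 in spontaneous and 241 to 322 in treated tumors. Their part in the fall of Ndn, and in those of Nnat and Airn below, was not tested.

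None of the 4 measured neighbors of Ndn passed the test in the same direction. Magel2 and Mkrn3, paternally expressed like Ndn, were dim, with control means of 4.78 and 3.34, and had log2 fold changes of 0.17 ± 0.17 and -0.12 ± 0.31 in spontaneous and -0.17 ± 0.16 and 0.23 ± 0.28 in treated tumors, none past the test. Mkrn3 stood at 4.29 in treated tumor 2 and 4.39 in treated tumor 6, above the highest control of 3.71. The probe set read by the Snrpn symbol alone was also dim and lay between 5.08 and 5.60 on all 15 arrays. Brighter probe sets shared with Snurf, described at the end and not tested, had lower means in tumors. One had means of 8.87 in control, 8.39 in spontaneous and 8.51 in treated tumors. On it 3 spontaneous and 5 treated tumors lay below every control. Another had 9.30, 8.24 and 8.42. Ube3a, the maternally expressed ubiquitin ligase lost in Angelman syndrome, for which imprinting is known from neurons, was bright at a control mean of 10.70. Its log2 signal was 10.56, 10.69, 10.70, 10.93 and 10.62 in the controls, 11.30, 10.96, 10.92 and 11.39 in the spontaneous tumors, and 10.79 to 11.24 around a median of 11.07 in the treated tumors. Most tumors lay above most controls, with overlap through control 4. The rises were small, at 0.44 ± 0.13 (limma adjusted p = 0.0194) and 0.33 ± 0.12 (adjusted p = 0.041). Of its 6 probe sets 2 rose in each comparison. The call in spontaneous tumors was lost under 6 of 26 alternatives, among them all 18 arrays (0.18, adjusted p = 0.946), the mean of its probe sets (0.29, adjusted p = 0.137) and the actin (0.43, adjusted p = 0.0602) and Y-linked covariates (0.30, adjusted p = 0.126). The other 2 are the fits without spontaneous tumor 1 (0.39, adjusted p = 0.0592) or 4 (0.36, adjusted p = 0.0721). The call in treated tumors was lost under 15 of 26 alternatives. Of these, 8 leave out control 1, 2, 3 or 6 or treated tumor 1, 2, 5 or 6, with log2 fold changes of 0.29 to 0.34 and adjusted p of 0.0532 to 0.0996.

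On proximal chromosome 6, Peg10 and Ppp1r9a rose and their neighbors Sgce and Asb4 did not pass. Peg10, a paternally expressed protein derived from a retrotransposon that is needed for the placenta, was dim in control lung at 5.64, 4.91, 5.69, 5.94 and 5.19. It reached 8.23, 6.40, 7.19 and 8.16 in the spontaneous tumors and 6.41 to 8.42, around a median of 7.65, in the treated ones. Every tumor lay above every control, and the tumors ranged more widely than the controls. Its log2 fold changes were 2.02 ± 0.46 (limma adjusted p = 0.00366) and 1.99 ± 0.42 (adjusted p = 0.00148), 4.05 and 3.98 times. Genes without overlap, higher in tumors, made up 17.8% of all genes in spontaneous and 14.4% in treated tumors, against 4 of the 32 (Peg10, Phlda2, Ppp1r9a and Trappc9) and 3 of the 32 (the first 3 of these). With the Y-linked genes as a covariate, Peg10 had 1.25 in treated tumors (adjusted p = 0.0648).

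Ppp1r9a encodes neurabin, an actin-binding subunit that targets protein phosphatase 1, and its imprinting is known mainly from extraembryonic tissue. The controls lay at 9.52, 9.44, 9.79, 9.65 and 9.65, the spontaneous tumors at 11.07, 10.94, 10.91 and 11.40, and the treated tumors between 10.88 and 11.53 with a median of 11.21. All tumors stood more than 1 log2 unit above all controls, and within each group the values were close together. The rise was 1.47 ± 0.15 in spontaneous (limma adjusted p = 3.54e-06) and 1.61 ± 0.13 in treated tumors (adjusted p = 3.33e-07). All 5 of its probe sets rose in both comparisons, by 1.41 to 1.68 and by 1.48 to 1.93. With the 3 poor arrays kept it had 1.19 (adjusted p = 0.410) and 1.75 (adjusted p = 0.0949). These rises, and those of Peg10, Phlda2, Trappc9 and Ube3a, came with a higher summed signal of the 10 measured type 2 cell markers, of which 8 rose in each comparison, at 68004 to 93248 in control, 112327 to 126904 in spontaneous and 112392 to 119945 in treated tumors. Sftpc, the brightest of them, had log2 fold changes of -0.01 and 0.02, and the part of these cells in the rises was not tested.

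Sgce, the sarcoglycan whose gene starts back to back with Peg10, had nearly level means while single tumors diverged. Its controls lay within 9.08 to 9.23. The spontaneous tumors had 9.0, 8.07, 8.96 and 9.31, and the treated tumors ran from 8.43 in treated tumor 3 to 9.89 in treated tumor 6. Log2 fold changes were -0.32 ± 0.29 and 0.00 ± 0.27. In spontaneous tumor 2 and treated tumor 3 both Sgce and Peg10 (6.40 and 6.43) were among the 3 lowest of the 10 tumors, and so were Mest, Plagl1 and Nap1l5. Peg10, Sgce and Plagl1 were among the 3 lowest in treated tumor 4 as well. Asb4, a subunit of ubiquitin ligases, had 0.49 ± 0.25 and 0.43 ± 0.23, which did not pass, while its other probe set rose in spontaneous tumors, by 0.89 (limma adjusted p = 0.0334), and had 0.40 in treated tumors.

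**Figure D2:**
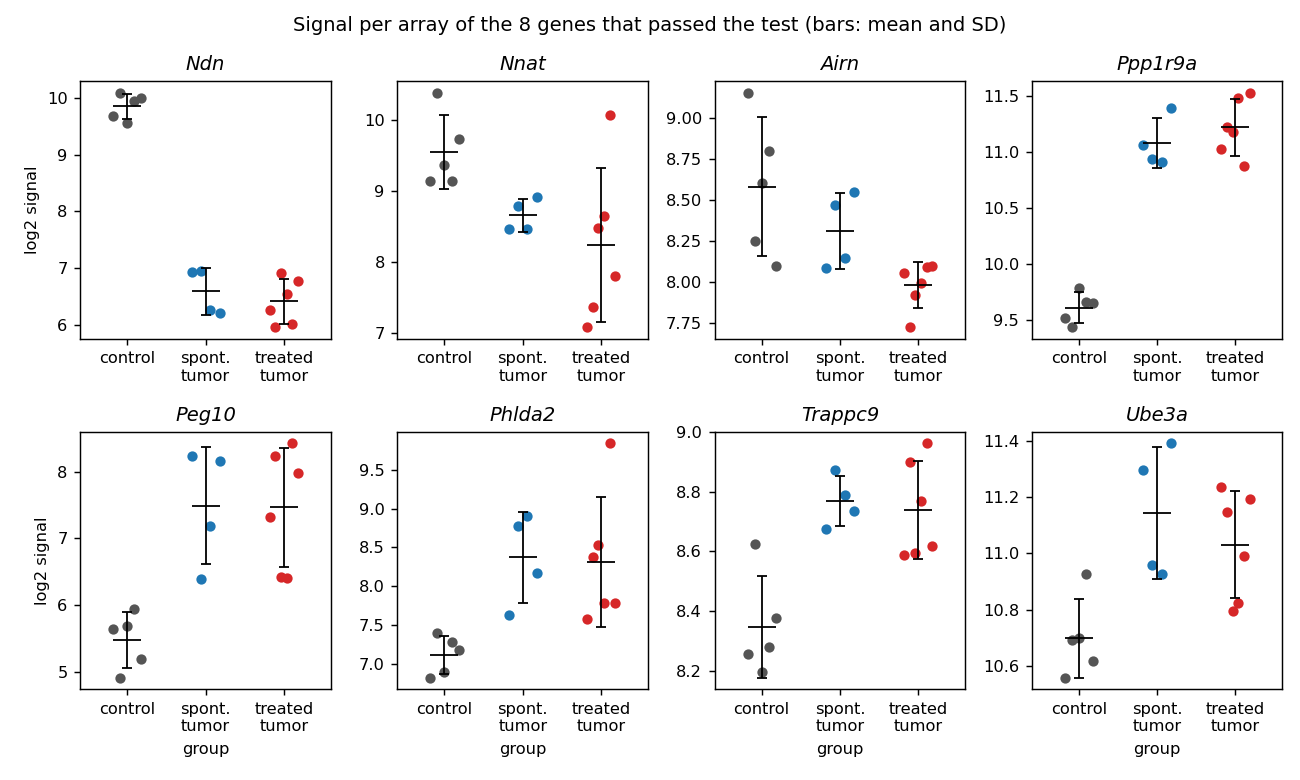
Log2 signal (vertical axis) of the 8 genes that passed the test in at least 1 comparison, by group (horizontal axis). Points are the 15 arrays and bars give the mean and SD. For Ndn and Ppp1r9a every tumor lies apart from every control, while Nnat and Phlda2 each have 1 treated tumor, number 5, above all other tumors.

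On distal chromosome 7 lie the Igf2-H19 and Kcnq1 clusters, with 8 measured genes. Phlda2, a maternally expressed pleckstrin-domain protein that restrains placental growth, rose, and the other 7 did not pass. It had 6.82, 7.39, 6.89, 7.28 and 7.17 in control, 7.63, 8.78, 8.90 and 8.17 in spontaneous tumors, and 7.57 to 9.84 around a median of 8.07 in treated tumors. No tumor overlapped with the controls, although the lowest tumors came close. Its log2 fold change was 1.26 ± 0.39 in spontaneous (limma adjusted p = 0.0205) and 1.20 ± 0.35 in treated tumors (adjusted p = 0.0127). Without spontaneous tumor 2 or 3 the first was 1.12 (adjusted p = 0.0592) or 1.08 (adjusted p = 0.0663). The call in spontaneous tumors was also lost with the actin (1.03, adjusted p = 0.106) and Y-linked covariates (1.26, adjusted p = 0.0575). That in treated tumors was lost with the Y-linked covariate (1.20, adjusted p = 0.0766).

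Cdkn1c, the cyclin-dependent kinase inhibitor p57, is maternally expressed from the same cluster. Its controls had 9.15, 8.29, 9.17, 9.61 and 9.29, the spontaneous tumors 8.0, 7.30, 7.78 and 7.85, and treated tumors 1 to 6 had 8.07, 9.03, 8.02, 7.07, 10.94 and 8.16. All 4 spontaneous tumors lay below all controls, and 4 treated tumors did too, while treated tumor 5 stood above every control. The log2 fold changes, -1.37 ± 0.55 (limma adjusted p = 0.0692) and -0.55 ± 0.50 (adjusted p = 0.416), did not pass. Without treated tumor 5 they were -1.37 (adjusted p = 0.00533) and -1.03 (adjusted p = 0.0172), and without treated tumor 4 the first passed as well (adjusted p = 0.0444). In a fit of the spontaneous tumors and controls alone Cdkn1c (adjusted p = 0.00234), Peg3 (adjusted p = 0.00485) and Nnat (adjusted p = 0.0205) passed beside Ndn. Together with Ndn they are the 4 genes of the 32 lower without overlap in spontaneous tumors (11.4% of all genes), and Ndn was the only such gene in treated tumors (10.1%).

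Igf2, the fetal growth factor, was not higher in the tumors as a group. Its control values of 7.21 to 8.41 compared with 6.20, 7.99, 7.47 and 6.36 in spontaneous tumors and 6.14 to 8.60, around 7.03, in treated tumors. Treated tumor 5 alone exceeded the highest control. Log2 fold changes were -0.91 ± 0.48 (limma adjusted p = 0.162) and -0.68 ± 0.43 (adjusted p = 0.236), and its second probe set had -1.50 and -0.89. The probe set shared by H19 and Mir675 was dim, with means of 5.18 in control, 4.62 in spontaneous and 4.59 in treated tumors. Cd81, a bright tetraspanin, had 0.28 ± 0.11 (adjusted p = 0.0539) and 0.15 ± 0.10. It passed in spontaneous tumors without control 2 (0.34, adjusted p = 0.0244) or spontaneous tumor 3 (0.33, adjusted p = 0.0430). The potassium channel Kcnq1 had 0.21 and 0.29, the transporter Slc22a18 -0.09 and -0.08, the noncoding RNA Kcnq1ot1 -0.06 and -0.27, and the sterol reductase Dhcr7 0.31 and 0.21. In a fit of all probe sets, 1 of the 6 of Kcnq1ot1 fell in treated tumors, at -0.89 (adjusted p = 0.00693). The same probe set had -0.69 in spontaneous tumors (adjusted p = 0.0538). Dhcr7 ranged from 8.08 to 10.07 in the controls alone, and passed in spontaneous tumors without control 6 (0.62, adjusted p = 0.0422).

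Treated tumor 5 was the highest of the 10 tumors for Igf2, Cdkn1c, Phlda2, Slc22a18 and Kcnq1, 5 of the 8 genes on distal chromosome 7, and for Peg10, Nnat and Trappc9 elsewhere. It was the highest tumor for 13.0% of all genes. Phlda2 reached 9.84 in it against 8.90 in the next tumor, Cdkn1c 10.94 against 9.03, and Slc22a18 9.0 against 8.70. For Kcnq1ot1, the antisense RNA that silences the cluster on the paternal copy, treated tumor 5 ranked the fourth, at 9.36 against a control mean of 9.46. These ranks depend on the probe set. On another of the 6 Kcnq1ot1 probe sets treated tumor 5 was the highest tumor, at 7.75 against 7.60 in spontaneous tumor 2, and on the rest it was not. On the second Slc22a18 probe set spontaneous tumor 3 was the highest, at 8.09 against 8.08 in treated tumor 5. Among 8 further measured genes of this region that are not in the set, treated tumor 5 was the highest tumor for Nap1l4 and Tnfrsf23 and the lowest for Osbpl5. The tumor was singled out after the values were seen.

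**Figure D3:**
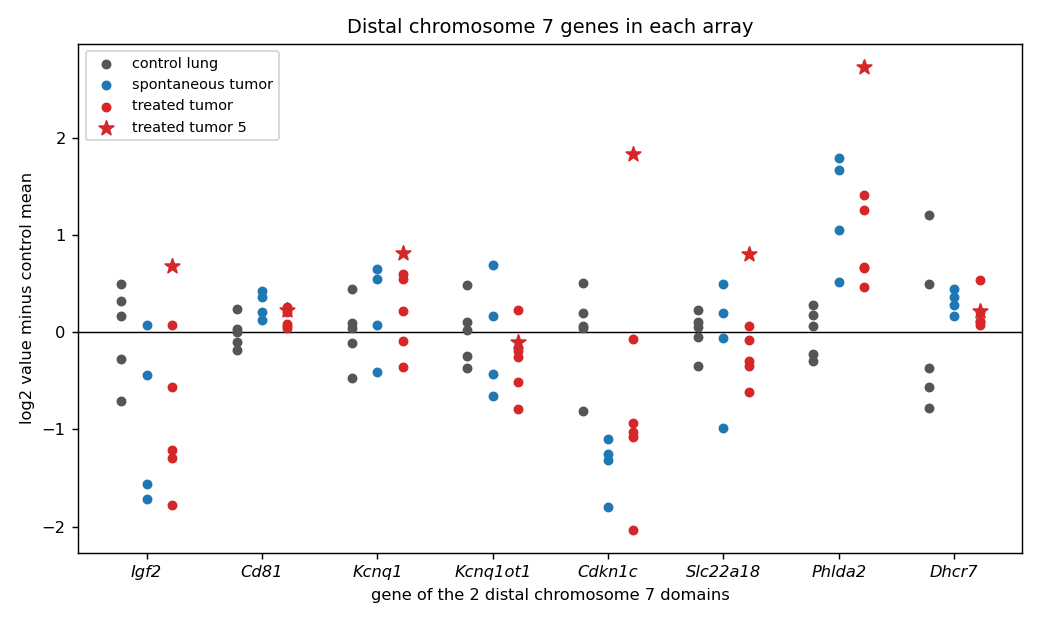
Log2 value minus the mean of the 5 controls (vertical axis) for the 8 genes of distal chromosome 7 (horizontal axis), 1 point per array. Treated tumor 5 (star) is the highest tumor for Igf2, Kcnq1, Cdkn1c, Slc22a18 and Phlda2 and lies among the others for Cd81, Kcnq1ot1 and Dhcr7.

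In the cluster of proximal chromosome 7, Peg3 diverged most of all. This paternally expressed zinc finger protein had 8.0, 6.9, 8.14, 7.87 and 7.30 in control, 5.98, 6.56, 6.00 and 6.74 in spontaneous tumors, and 6.08, 9.95, 7.62, 5.74, 7.02 and 5.19 in treated tumors 1 to 6. All 4 spontaneous tumors lay below the controls, whereas treated tumor 2 lay above them. Log2 fold changes were -1.32 ± 0.70 (limma adjusted p = 0.165) and -0.71 ± 0.63 (adjusted p = 0.412). Without treated tumor 2 they were -1.32 (adjusted p = 0.0280) and -1.31 (adjusted p = 0.0193). Usp29, which starts next to Peg3 on the opposite strand as shown above, lay at 5.33 to 5.62 in control and was also highest in treated tumor 2, at 6.47, with the other 9 tumors between 5.23 and 5.72. Its log2 fold changes were 0.06 ± 0.19 and 0.20 ± 0.17. Zim1, the maternally expressed neighbor, lay between 3.53 and 4.0 on the 15 arrays kept.

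Nnat encodes neuronatin, a membrane proteolipid, and had 9.13, 10.38, 9.36, 9.14 and 9.73 in control. It had 8.46, 8.78, 8.46 and 8.91 in spontaneous and 7.08 to 10.07, with a median of 8.14, in treated tumors. All tumors but treated tumor 5 lay below the controls. The log2 fold change was -0.89 ± 0.47 in spontaneous tumors, which did not pass (limma adjusted p = 0.158), and -1.31 ± 0.42 in treated tumors (adjusted p = 0.0226). Without treated tumor 5 it passed in spontaneous tumors as well (adjusted p = 0.0462). The call in treated tumors was lost without control 2 (-1.10, adjusted p = 0.0625) or treated tumor 2 (-1.13, adjusted p = 0.0516). Gnas, the stimulatory G protein subunit and the brightest of the set, lay between 12.54 and 13.01 on all 15 arrays.

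Airn is the noncoding RNA that silences Igf2r, the receptor that clears Igf2, on the paternal copy. Its signal was 9.15, 8.25, 8.60, 8.79 and 8.10 in control, 8.09, 8.47, 8.14 and 8.55 in spontaneous and 7.72 to 8.10, around 8.02, in treated tumors. It fell in treated tumors by 0.60 ± 0.17 (limma adjusted p = 0.0101), with values that just met those of the controls, and had -0.27 ± 0.19 in spontaneous tumors (adjusted p = 0.291). Of its 5 probe sets 3 fell in treated tumors, and the other 2 had -0.15 and 0.15. In spontaneous tumors 1 of the 5 fell, with a log2 fold change of -0.70 (adjusted p = 0.0117) beside -0.68 for the same probe set in treated tumors. Igf2r itself lay at 9.0 to 9.76 on the 15 arrays kept, with log2 fold changes of 0.06 ± 0.15 and -0.02 ± 0.13. Trappc9, a subunit of a vesicle trafficking complex that surrounds Peg13, had 8.26, 8.63, 8.19, 8.28 and 8.38 in control, 8.68, 8.87, 8.79 and 8.74 in spontaneous and 8.59 to 8.96, around 8.69, in treated tumors. It rose by 0.42 ± 0.12 (adjusted p = 0.0113) and 0.39 ± 0.10 (adjusted p = 0.00771), while its 2 dimmer probe sets, with log2 fold changes of 0.04 to 0.21, did not pass. With its probe sets averaged both calls were lost (0.26, adjusted p = 0.0531, and 0.20, adjusted p = 0.0872). The actin covariate removed the call in spontaneous tumors (0.37, adjusted p = 0.0583) and the Y-linked covariate that in treated tumors (0.35, adjusted p = 0.0851).

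Among the genes at other loci none passed the test. Grb10, an adaptor that damps insulin and IGF receptor signalling, lay at 9.82 to 10.39 in control, at 8.35, 9.85, 10.05 and 9.08 in spontaneous tumors and at 10.27, 8.70, 9.02, 10.21, 7.71 and 7.72 in treated tumors 1 to 6. Treated tumors 5 and 6 were more than 2 log2 units below the lowest control and treated tumors 1 and 4 within the control range. Log2 fold changes were -0.69 ± 0.51 (limma adjusted p = 0.322) and -1.09 ± 0.46 (adjusted p = 0.0739). The second passed without treated tumor 1 (-1.35, adjusted p = 0.0230) or treated tumor 4 (-1.34, adjusted p = 0.0254). Nap1l5, a nucleosome assembly protein, lay between 6.35 and 7.19 in control, while tumors ran from 5.09 to 7.40. Plagl1, a zinc finger transcription factor and among the brightest of the set, had -0.24 ± 0.29 and -0.43 ± 0.26. The fetal gene Mest had 0.06 ± 0.21 and 0.02 ± 0.19, the translation regulator Impact -0.03 ± 0.16 and 0.30 ± 0.14, and the phosphatase Inpp5f -0.09 ± 0.14 and 0.04 ± 0.13.

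Rasgrf1, an exchange factor that activates Ras, is the gene for which the probe set decided the result. The probe set used, by the highest mean, had 5.92 to 6.44 in control, 5.75, 6.26, 5.70 and 5.56 in spontaneous and 6.26, 6.49, 7.34, 8.22, 6.27 and 7.08 in treated tumors 1 to 6. Treated tumors 2, 3, 4 and 6 stood above every control and treated tumor 4 farthest. Its log2 fold changes were -0.38 ± 0.33 (limma adjusted p = 0.401) and 0.74 ± 0.30 (adjusted p = 0.0587). The second passed without treated tumor 1 (0.88, adjusted p = 0.0294), treated tumor 2 (0.83, adjusted p = 0.0481) or treated tumor 5 (0.88, adjusted p = 0.0301). In a fit of all probe sets, the one next in brightness fell, at -0.78 in spontaneous (adjusted p = 0.00538) and -1.02 in treated tumors (adjusted p = 0.000268). The third rose in treated tumors, at 1.71 (adjusted p = 0.00348), with 0.59 in spontaneous tumors. The probe sets thus differed in direction within the same tumors, and the direction for the gene is uncertain.

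**Figure D4:**
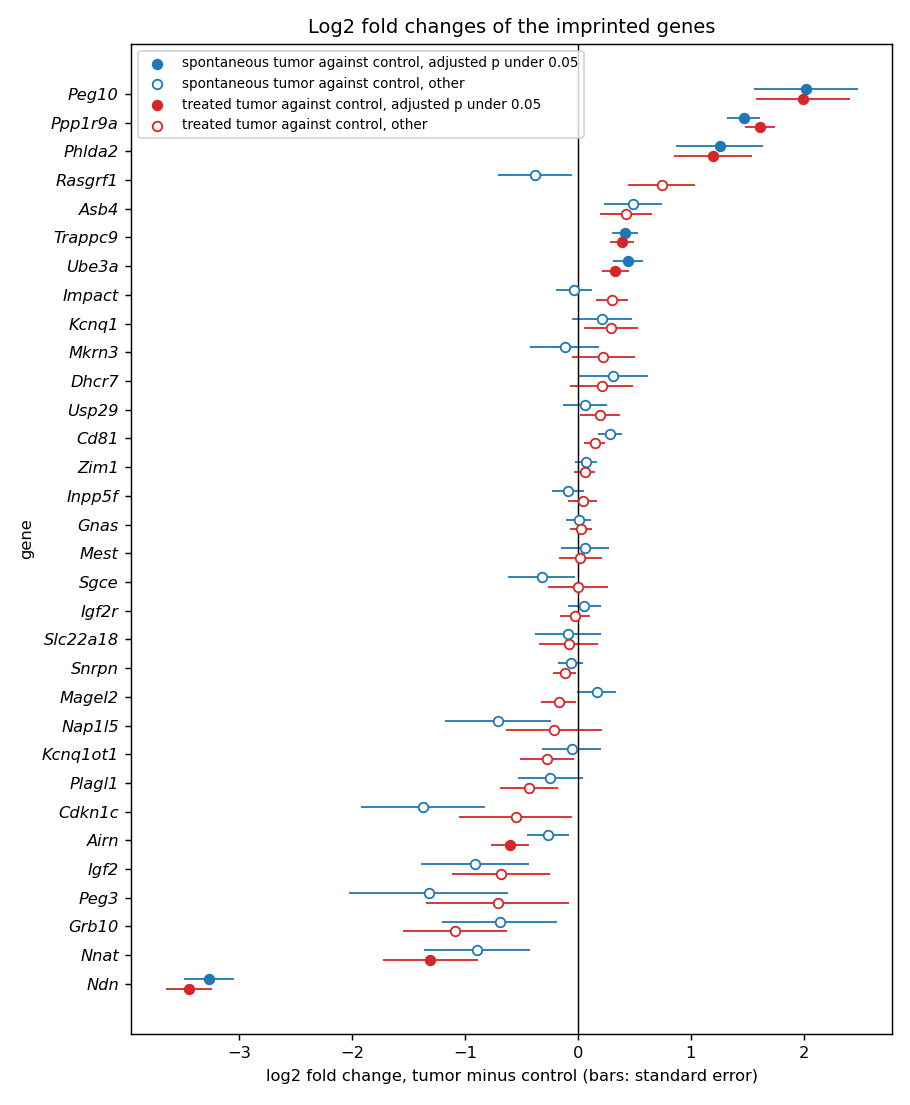
Log2 fold change against control (horizontal axis, bars are standard errors) of the 32 genes (vertical axis, ordered by treated tumors) for 4 spontaneous and 6 treated tumors. Filled points passed the test (adjusted p under 0.05), and the estimates of both tumor groups lie close together for Peg10, Ppp1r9a, Phlda2 and Ndn.

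Between treated and spontaneous tumors 0 of the 32 genes passed (limma), where 10 genes passed in all, 0.055% of those tested. At an unadjusted p under 0.05 there were 2, against 8.64% of all genes. These were Rasgrf1, 1.12 ± 0.32 higher in treated tumors (adjusted p = 0.285) but at -0.23 (adjusted p = 0.779) by its probe set that fell in both tumor groups, and Impact, 0.33 ± 0.15 higher (adjusted p = 0.565). The 6 genes called in the same direction in both tumor groups compare with 27.7% of all genes, and both groups were set against the same controls. Ndn differed between the tumor groups by -0.18 ± 0.21, Peg10 by -0.03 ± 0.44, Ppp1r9a by 0.14 ± 0.14 and Phlda2 by -0.06 ± 0.37, each about as large as its standard error or smaller. The calls of Nnat and Airn in treated tumors only do not show a difference from spontaneous tumors, where the direct comparison gave -0.41 ± 0.45 (adjusted p = 0.838) and -0.33 ± 0.18 (adjusted p = 0.636).

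Many of the imprinted genes varied more among treated tumors than among controls. The SD over the 6 treated tumors was more than 2 times that over the 5 controls for 14 of the 32 genes (43.8%), against 22.8% of all genes. It exceeded 1 log2 unit for Peg3 (1.72), Cdkn1c (1.32), Grb10 (1.14) and Nnat (1.08), which is 12.5% of the set against 2.65% of all genes. Sgce had the largest ratio, 9.26 times its SD in control of 0.07. In spontaneous tumors the SD was more than 2 times that in control for 8 of the 32 (25%) against 21.0% of all genes, and none exceeded 1. Airn and Dhcr7 went the other way, with an SD in treated tumors 0.34 and 0.20 times that in control. These shares were not tested, since neighboring genes are not independent.

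**Figure D5:**
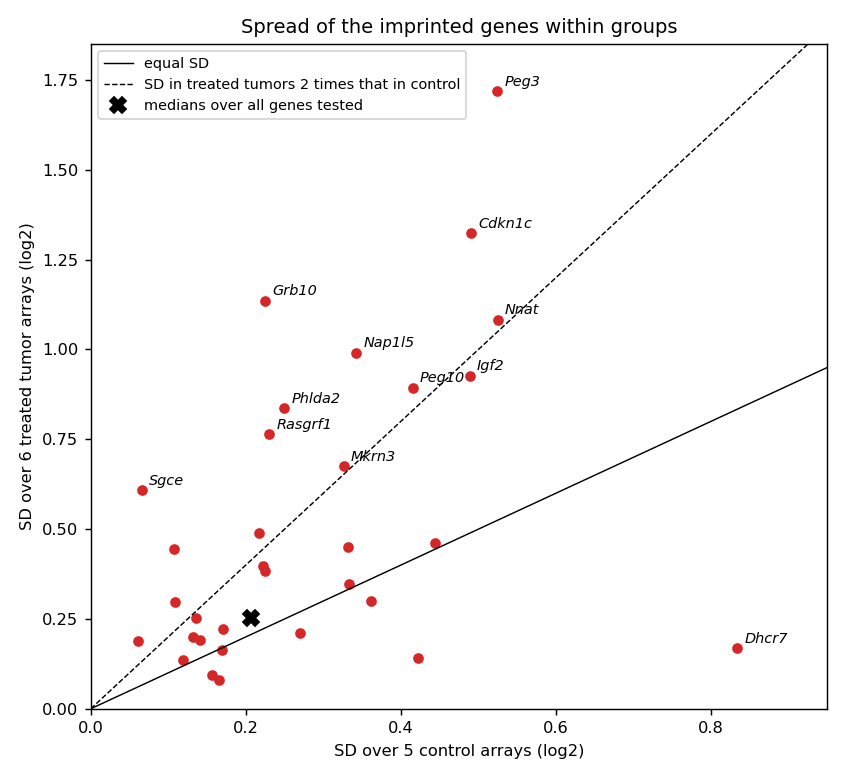
SD of the log2 signal over 6 treated tumors (vertical axis) against that over 5 controls (horizontal axis) for the 32 genes, with lines of equal and of 2-fold SD and a cross at the medians over all genes tested. Peg3, Cdkn1c, Grb10 and Nnat lie above 1 on the vertical axis, and Dhcr7 varied more in control.

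Genes around the set were followed with lists made beside it. Of 42 other imprinted genes measured, 13 rose and 3 fell in spontaneous tumors and 14 rose and 4 fell in treated tumors, 38.1% and 42.9% beside the 33% and 38.8% of all genes, with median log2 fold changes of 0.28 and 0.20. Qpct, a glutaminyl cyclase, rose by 1.84 ± 0.40 and 2.00 ± 0.37, Herc3 by 1.29 ± 0.32 and 1.78 ± 0.29, Gatm, an enzyme of creatine synthesis, by 1.58 ± 0.37 and 1.37 ± 0.34, and the transcription factor Ascl2 by 1.11 ± 0.16 and 0.86 ± 0.15. Phactr2, a regulator of phosphatase 1 and actin, had -0.82 ± 0.13 and -0.63 ± 0.11. At the Dlk1 locus, for comparison, 3 of 4 measured genes rose in spontaneous and 4 of 4 in treated tumors, with Dlk1 at 3.43 ± 0.92 and 7.69 ± 0.83. Between the tumor groups Dlk1 differed by 4.26 ± 0.89, which did not pass (limma adjusted p = 0.127). Peg10, the largest rise in the set, had a smaller log2 fold change than each of the 4 genes at the Dlk1 locus.

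In the IGF pathway, in which Igf2, Igf2r and Grb10 act, 6 of 25 measured genes rose and 4 fell in each comparison, with median log2 fold changes of -0.05 in both. That is 40% of them, beside 33% and 38.8% of all genes. Igfbp2 and Igfbp6, which bind IGFs outside the cell, had -3.43 ± 0.34 and -3.70 ± 0.33 in spontaneous and -3.78 ± 0.31 and -3.35 ± 0.30 in treated tumors. Igfbp3 rose by 2.14 ± 0.37 and 2.86 ± 0.33, the receptor substrate Irs2 by 1.20 ± 0.20 and 1.21 ± 0.18, the adaptor Grb14, a relative of Grb10, by 1.97 ± 0.26 and 1.18 ± 0.23, and the insulin receptor Insr by 0.39 ± 0.12 and 0.62 ± 0.11. Igfbp2 is also on the alveolar type 1 cell list, of which 7 of 9 markers fell in spontaneous and 6 in treated tumors, and the part of these cells in its fall was not tested.

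Of 25 genes that set or keep imprints, 6 rose in spontaneous and 7 in treated tumors and 0 fell (limma). These are 24% and 28%, beside the 20.1% and 23.8% of all genes that rose, and with all 18 arrays the counts were 0 and 1. The polycomb methyltransferase Ezh2 rose by 1.28 ± 0.27 and 1.75 ± 0.25, its partner Eed by 0.61 ± 0.10 and 0.50 ± 0.09, and Trim28, the corepressor recruited by zinc finger proteins to imprinted regions, by 0.89 ± 0.15 and 0.77 ± 0.14. Zfp57, which binds the methylated copy of control regions, rose in treated tumors by 0.89 ± 0.19 (adjusted p = 0.00169) and had -0.03 ± 0.21 in spontaneous tumors. The direct comparison of treated with spontaneous tumors gave 0.92 ± 0.20, which did not pass (adjusted p = 0.165). Oncofetal genes moved both ways, with 2 of 11 higher (Epcam and Afp) in each comparison, and 2 (Sox11 and Tead4) and 1 (Sox11) lower, or 36.4% and 27.3% called beside 33% and 38.8% of all genes. Of the 32 imprinted genes 10 lay below the median gene in control lung, with Mkrn3 the dimmest at 3.34.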

How the data were processed

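The deposited values are log2 signals that the authors made with RMA, per the submitters' processing notes, which adjusts the background, normalizes the arrays together and summarizes the probes of a probe set. The version of RMA was not given in the sources used here. The array has 45101 probe sets: 34945 with a single gene symbol, 932 with more than one, 9160 without any and 64 controls. Per gene, the probe set with the highest mean over 15 arrays was used, which gave 18193 genes. Groups came from the sample titles. They were compared with limma 3.58.1 in R 4.3.3 (lmFit and eBayes, 1 mean per group, all 3 groups sharing the spread), with Benjamini-Hochberg adjustment over all genes of a comparison and calls at adjusted p under 0.05. The code was tested on simulated data. Errors of log2 fold changes are standard errors, and the small number of arrays limits precision. The labels do not state that replicate numbers pair the samples, and the main test did not use them as pairs. Deviations of 13 same-number pairs correlated at -0.15 to 0.30, and 2 of the 13 were over 0.1. Those of 61 pairs with other numbers correlated at -0.35 to 0.37. Such correlations cannot exclude samples from the same animal. No 2 arrays were duplicates, with at most 32 identical values.

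The members, the gene lists and the tests were chosen with earlier results of these data known. All measured members could be named, and beside them up to 6 genes with the smallest p from the other imprinted and IGF lists, up to 4 from the Dlk1, imprint maintenance and oncofetal lists, and the 3 brightest of a cell type list. Other genes named as counted in a list were chosen after their values were seen. Alternatives were all 18 arrays, quantile normalization, median centring, a filter on dim genes, other rules for probe sets, a variance trend, only the arrays compared, a replicate block, an actin or a Y-linked covariate, a fold threshold, and each array left out. The Y-linked covariate was the mean log2 signal of 3 Y-linked genes. It was 8.69 to 8.89 in control, 8.91 to 9.41 in spontaneous and 8.60 to 9.49 in treated tumors. Every spontaneous tumor thus lay above every control. The labels give no sex, and whether this covariate follows sex was not tested. Promoter windows came from RefSeq in build GRCm38.p6.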

Additional observations from a re-analysis of the deposited data

Results flagged for a closer look

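In each group of 4 to 6 arrays, the highest and lowest value of every imprinted gene was compared with the others by Dixon's criterion. Of 96 such groups 2 had a sample far from the rest, where chance gives about 1 in 20, or 4.8. Nap1l5 had 7.19 in control 4, against 6.35 to 6.48 in the other 4 controls. Dhcr7 had 9.39 in treated tumor 2, against 8.93 to 9.07 in the other 5 treated tumors.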

How the results depend on the processing

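Ndn stayed past the threshold in both comparisons under every alternative that tested it, and left the test when genes below the median gene were dropped. Ppp1r9a lost its call only with all 18 arrays. The number of higher genes in spontaneous tumors, 5, became 0 with all 18 arrays, 2 with the actin covariate, 3 with the Y-linked covariate and 3 with a fold of at least 2, and was 4 to 6 with 1 array left out. The number lower, 1, became 0 without dim genes, 2 with the probe set chosen over 18 arrays, 4 with only the arrays compared and 3 with the actin covariate, and was 1 to 3 with 1 array left out. In treated tumors, the 5 higher became 1 with all 18 arrays, 3 with all probe sets of a gene averaged, 2 with the Y-linked covariate and 3 with a fold of at least 2, and were 4 to 5 with 1 array left out. The 3 lower became 1 with all 18 arrays, and were 2 to 4 with 1 array left out. With the replicate block, 5 genes were higher and 2 lower in spontaneous tumors, and 5 higher and 4 lower in treated tumors. Rasgrf1 in treated tumors turned from 0.74 to -1.02 with the probe set chosen over 18 arrays. Apart from genes dropped by the filter, the cause of these changes was not tested. Between treated and spontaneous tumors 0 genes of the set passed under each alternative, while the count over all genes, 10, ran from 0 to 28 (0 without treated tumor 6 or spontaneous tumor 2, 28 without treated tumor 1). Over all genes, the counts fell from 6012 to 757 and from 7065 to 1350 with all 18 arrays, to 4004 and 4658 without dim genes, where 9097 genes were tested, and from 7065 to 4344 with the Y-linked covariate. Of 82 log2 fold changes that did not pass, 48 changed sign under at least 1 alternative while staying uncalled. The median gene shifted by 0.12 in spontaneous tumors, and by 0.08 after median centring.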

Other observations

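Snrpn, the splicing protein at the center of the Ndn cluster, is read brightly by probe sets that it shares with Snurf, which lies in the same transcript. One of these had 8.99 to 9.82 in control, 9.66, 7.0, 7.91 and 8.38 in spontaneous tumors 1 to 4, and 7.27, 9.44, 6.92, 9.05, 8.17 and 9.64 in treated tumors 1 to 6. On this probe set spontaneous tumor 2 and treated tumors 1 and 3 were the lowest, while 4 tumors lay within the control range. The drop was smaller on another bright one, with a lowest control of 8.74 and values of 8.28, 8.19 and 8.23 in the same 3 tumors, and there spontaneous tumor 3 was the lowest at 8.09. These probe sets carry more than 1 symbol and were not tested. Spontaneous tumor 2 and treated tumor 3 are also the tumors in which Peg10, Sgce, Mest, Plagl1 and Nap1l5, all paternally expressed, were among the 3 lowest of the 10 tumors. In each of them 8 of the 18 paternally expressed genes were among the 3 lowest, beside 25% and 30.5% of all genes. The 5 genes just named are counted in these 8. In each of them 6 of the 18 were among the 3 highest, beside 45.4% and 29.2% of all genes. Of the 13 maternally expressed genes, 2 and 4 were among the 3 lowest. Treated tumor 4 also had 8 of the 18 among the 3 lowest, beside 34.5% of all genes. Its Snurf and Snrpn value of 9.05 lay within the control range. Treated tumor 2, with the highest Peg3 and Usp29, was among the 3 highest of the 10 tumors for 11 of the 18, beside 20.2% of all genes. Peg3 and Usp29 are counted in these 11, and 3 of the 13 maternally expressed genes were also among the 3 highest there. These tumors were singled out after the values were seen, and the shares were not tested. Values of the H19 and Mir675 probe set in all 6 treated tumors, 4.39 to 4.71, lay below the lowest control, 4.76.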
